A study of Mus musculus with 4 samples.

Results

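The genes described here are the nuclear-encoded subunits of the mitochondrial respiratory chain and ATP synthase, together with a few of their assembly factors, as they were recovered in the neuropil of hippocampal area CA1. A polyA site was taken when its gene name in the table of tags began with Nduf, Uqcr, Cox4 to Cox8 or Atp5, or was Sdha, Sdhb, Sdhc, Sdhd, Cycs or Cyc1. This rule uses names only and no measured value. It found 76 of the 9297 polyA sites, with 63 of the 7202 gene names and 513 of the 34672 tags (1.48%).

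The 4 libraries, numbered 1 to 4, form a single group and were made by cTag-PAPERCLIP from mice of genotype Camk2a-Cre x Pabpc1-cTag on the C57BL/6 strain. In these mice, Cre recombinase switches on a GFP tag on Pabpc1, the cytoplasmic poly(A)-binding protein, in cells where the Camk2a promoter is active, which in hippocampus are excitatory neurons. Slices were crosslinked with ultraviolet light, the neuropil was dissected away from the layer of cell bodies, and RNA bound to tagged Pabpc1 was sequenced, so that each fragment (a tag) lies at the 3′ end of an mRNA. Each library pooled several mice, the labels give no age, and they do not say whether the libraries came from separate mice, so that the spread between libraries may be partly technical. No untagged control or cell body library was analysed here, and a share of tags is therefore not a measure of enrichment in dendrites.

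Electrons from nutrients enter the chain at complex I (NADH dehydrogenase, mostly Nduf genes) or complex II (succinate dehydrogenase, Sdh genes), pass through complex III (Uqcr genes and Cyc1) and cytochrome c (Cycs), and reach oxygen at complex IV (cytochrome c oxidase, Cox genes). The proton gradient that complexes I, III and IV build drives complex V, the ATP synthase (Atp5 genes). Most subunits are small proteins encoded in the nucleus, translated in the cytoplasm and imported, while a few core subunits are encoded in mitochondrial DNA. Synapses and dendrites depend on this ATP supply, and mRNAs of nuclear-encoded subunits are known from the processes of neurons as well as from cell bodies.

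Some of the sites with the most tags are shown first, since a hexamer near the site is the usual sequence sign of an mRNA 3′ end. Each line gives 30 bases of GRCm38 on the strand of the gene, with 15 bases upstream of the listed position, and capitals mark 1 hexamer per site, AATAAA or ATTAAA.
Ndufa4 site with 72 tags, chr6:11900380-11900409, minus strand: gagtttattacactgatgAATAAAtctctg
Cox6a1 site with 51 tags, chr5:115345661-115345690, minus strand: gtaagaggagatgccttaAATAAAtaactt
Ndufb9 site with 21 tags, chr15:58939446-58939475, plus strand: tcagagcacgctcacacttgccctAATAAA
Cox5b site with 21 tags, chr1:36693346-36693375, plus strand: ttctctctAATAAAgattagccattgcact
Atp5mpl site with 20 tags, chr12:111961383-111961412, minus strand: ttataatgtggcattAATAAAtgtatctgt
Cox4i1 site with 16 tags, chr8:120674170-120674199, plus strand: tccaatggtccatgctAATAAAagaccagt
Ndufc1 site with 11 tags, chr3:51405474-51405503, minus strand: agaAATAAAaatactcgcgctcctcatgtg
A smaller number of sites held the variant hexamer ATTAAA only, and these are shown as examples. In the sequence of Ndufa5 a further ATTAAA downstream of the marked one is left in lower case.
Ndufa5 site with 8 tags, chr6:24518677-24518706, minus strand: tggatgggaATTAAAtgtgcaattaaatgc
Ndufc2 site with 7 tags, chr7:97407763-97407792, plus strand: gatgttaacactgttATTAAAatagttatt
Atp5d site with 6 tags, chr10:80145781-80145810, plus strand: cccagcctgtctccATTAAAcaccaggaac
The hexamer lay across or close to the listed position in these sequences, and not at one fixed distance upstream of it. What the listed position marks within the tags is not given in the sources used here.

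Across the whole table the libraries held 16017, 6609, 5947 and 6099 tags, so that 3 tags, the limit a count of 0 allows, correspond to 0.0187%, 0.0454%, 0.0504% and 0.0492%. Sites whose surroundings resemble Bc1, an abundant noncoding RNA of dendrites, took 32.9%, 11.8%, 2.59% and 2.07% of tags, and none of them carried a name of the respiratory chain. Of 10 genes listed as pyramidal neuron markers 8 had tags, between 0.287% and 1.52% of a library. Of their 282 tags, 127 belonged to Snap25, a gene of neurons in general. Camk2a and Slc17a7 were at 0 under their own names, although 215 tags lay at sites inside the annotated Camk2a gene. Markers of other cells were also present. All 8 astrocyte genes had tags (0.164% to 0.418%), as had all 6 oligodendrocyte genes (0.131% to 0.545%), 5 of 8 interneuron genes (0.0687% to 0.295%; Gad2, Slc32a1 and Vip at 0), 3 of 6 blood genes (0.0250% to 1.28%) and 1 of 6 microglia genes (2 tags in all; Cx3cr1, Csf1r, C1qb, Tmem119 and Aif1 at 0).

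Respiratory chain and ATP synthase mRNAs were found in every library. Their sites held 282, 103, 54 and 74 tags in libraries 1 to 4. As a share of the library these were 1.76% (95% Wilson interval, 1.57 to 1.98), 1.56% (1.29 to 1.89), 0.908% (0.697 to 1.18) and 1.21% (0.968 to 1.52), a mean of 1.36% ± 0.377 (SD, n = 4). Library 1 was the highest and library 3 the lowest, and the intervals of these libraries did not overlap. These intervals cover counting error only, because amplified tags need not be independent molecules. When sites resembling Bc1 were left out of the total, the shares were 2.62%, 1.77%, 0.932% and 1.24% (1.64% ± 0.740), in the same order. The share of oligodendrocyte markers, at 0.281%, 0.545%, 0.185% and 0.131%, was likewise higher in libraries 1 and 2 than in 3 and 4. Astrocyte markers were at 0.418%, 0.242%, 0.319% and 0.164%. Interneuron markers were higher in libraries 3 and 4, at 0.0687%, 0.0908%, 0.219% and 0.295%, and blood markers, at 0.0250%, 0.560%, 1.28% and 0.148%, were highest in library 3. Genes listed as pyramidal neuron markers, under their own names, were at 0.674%, 0.287%, 1.04% and 1.52%, but had no common pattern. Snap25, a gene of neurons in general, had 31, 3, 36 and 57 of these tags, while Nrgn had 32, 6, 6 and 9. The tags inside the Camk2a gene, which that share leaves out, were 152, 24, 12 and 27. The part of these cell types in the difference was not tested. With tissue of mixed cells, fewer cells of a type and less RNA per cell cannot be told apart.

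Most of these genes recurred between libraries. Of the 63 genes, 49 (77.8%) had tags in more than 1 library, beside 47.4% of all genes in the table, and 10 (15.9%) had tags in all 4, beside 7.76%. The 49 genes became 32 without library 1, the deepest, and 25 when at least 2 tags were required in a library. At least 10 tags were held by 14 genes (22.2%), beside 7.4% of all genes, and the median gene had 4 tags, beside 2. By site, 48 of 76 (63.2%) recurred, beside 34.2% of all sites. Recurrence rises with tag number, and sites were therefore also set beside all sites of the same tag count. Among sites with 2 tags, 5 of 9 of the respiratory chain recurred (55.6%, beside 61.4% of all), and among sites with 3 tags 8 of 13 did (61.5%, beside 85.3%). All 21 sites with 4 to 9 tags and all 14 with 10 or more recurred, beside 94.6% and 96.9% of all sites. At 2 or 3 tags the sites thus recurred no more than others, and 27 of the 63 genes had 3 tags or fewer over the 4 libraries together. Tags were found for 53, 38, 29 and 31 of the 63 genes in libraries 1 to 4, which is 84.1%, 60.3%, 46.0% and 49.2% of them, beside 58.2%, 34.8%, 43.9% and 40.8% of all genes.

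A list of 84 nuclear-encoded subunits was used to see which were absent. Of these, 56 had at least 1 site under their own name, comprising 27 of 37 in complex I, 3 of 4 in complex II, 8 of 9 in complex III, 10 of 18 in complex IV and 8 of 15 in complex V. The complex IV genes without a site were Cox4i2, Cox6a2, Cox6b2, Cox7a1, Cox7b2, Cox8a, Cox8b and Cox8c. Among them, Cox4i2, Cox6a2, Cox6b2, Cox7a1 and Cox7b2 are paralogs of listed genes that had a site. Cycs, the single gene of somatic cytochrome c, had no site. Neither had Ndufs1, an iron-sulfur subunit of the NADH-oxidising arm of complex I, Atp5b, the catalytic β subunit of ATP synthase, or Atp5g1 and Atp5g2, which encode the same c-ring protein as Atp5g3. Absence from the table can also reflect naming. A further 7 sites with 14 tags lay inside 5 genes of the same families but carried another gene's name, such as a site with 2 tags in the Atp5b 3′UTR listed as Mir677 and a site with 3 tags in the Ndufa10 3′UTR listed as Mir6900.

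Complexes IV and I together held most of the tags, and complex II held the fewest. Complex IV genes had 125, 43, 19 and 32 tags in libraries 1 to 4, a mean of 0.569% ± 0.196 of the library (SD, n = 4) and 42.7% of all tags of the respiratory chain. Complex I genes had 80, 33, 17 and 25 tags, or 0.424% ± 0.101. Complex V genes had 35, 17, 10 and 5 tags, or 0.181% ± 0.0757. These values put the complexes in the same order, IV over I over V, in each of the 4 libraries. The order of IV and I depended on Ndufa4, which has been assigned to both, since counting it in complex I gave mean shares of 0.663% for complex I and 0.329% for complex IV. Complex III had 19, 3, 4 and 2 tags (0.0660% ± 0.0379) and complex II had 2, 0, 1 and 3 (0.0196% ± 0.0210). The latter was at or below 3 tags in every library, and no order of the libraries can be read from it at this depth. Without library 4 its mean was 0.00977%. The remaining 7 genes, which are assembly factors and proteins outside the subunit list, had 21, 7, 3 and 7 tags (0.101% ± 0.0350).

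**Figure D1:**
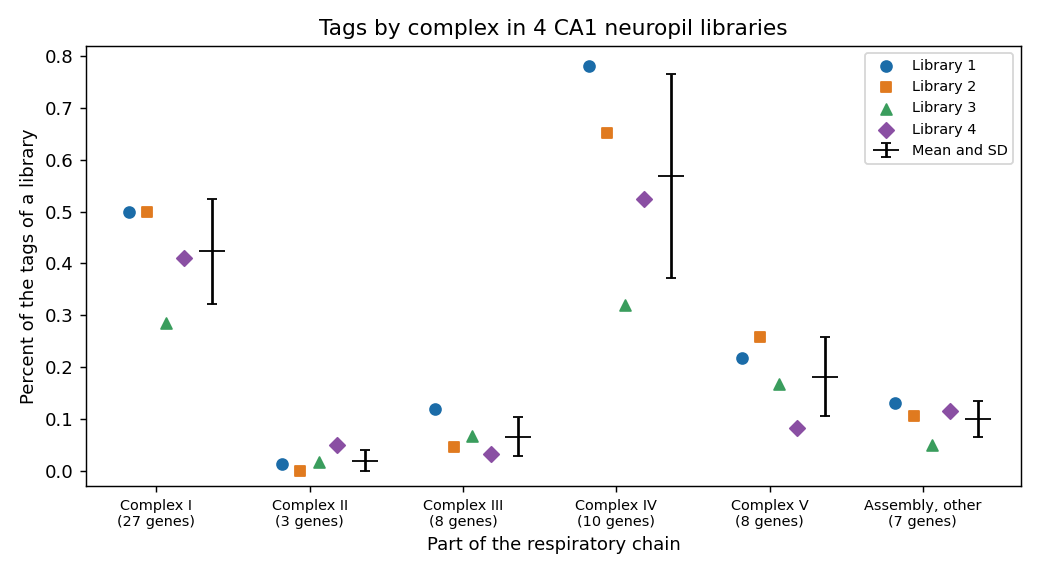
Tags at genes of each complex as a percentage of all tags of a library (vertical axis), with 1 point per library and the mean and SD of the 4 libraries in black. Complex IV, at a mean of 0.569%, lay above complex I, at 0.424%, in each library with Ndufa4 counted in complex IV (0.329% and 0.663% when it was counted in complex I), and complex II had the lowest mean.

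Because the complexes differ in their number of subunits, tags were next divided by the number of listed genes. Tags come from 3′ ends, with 1 such end per mRNA, so that no division by length was made. Complex IV had 12.2 tags per listed gene, complex V 4.47, complex I 4.19, complex III 3.11 and complex II 1.5. The log2 ratio of complex IV to complex I per gene was 1.68, 1.42, 1.20 and 1.40 in libraries 1 to 4, a mean of 1.43 ± 0.20 (SD), or 2.69-fold. All 4 libraries lay above 0. Over genes with a site only, the mean log2 ratio was 1.82, with libraries from 1.59 to 2.08. The mean log2 ratio was tested against 0 by an exact permutation of signs over libraries (two-sided). Its smallest p with 4 libraries is 1 in 8, and so no ratio here could pass 0.05. For complex IV over complex I the p was this smallest value (exact permutation, Benjamini-Hochberg adjusted p = 0.25 over the 4 ratios tested). This difference rested on single genes. Without the gene of each complex that had the most tags, the mean log2 ratio was 0.39 and the libraries ranged from -1.42 to 1.71 (exact permutation p = 0.625). When Ndufa4 was counted in complex I, for which it is named, the mean ratio was -0.34 (exact permutation p = 0.75).

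Per gene, the ratio of complex V to complex I differed in sign between libraries. The log2 ratio of complex V to complex I was 0.11, 0.35, 0.54 and -1.02, a mean of -0.01 ± 0.70 (exact permutation p = 1, adjusted p = 1), with library 4 alone below 0. Complex III was lower than complex I in all 4 libraries, with log2 ratios of -0.03, -1.42, -0.05 and -1.60 and a mean of -0.78 ± 0.85 (again the smallest exact permutation p, adjusted p = 0.25), but it was nearly level in libraries 1 and 3. Within complex I, the 7 nuclear-encoded core subunits, the ones conserved in bacteria, had 8, 3, 2 and 7 tags, and the 30 accessory subunits had 72, 30, 15 and 18. Per gene this was 2.86 tags for core and 4.5 for accessory subunits. The log2 ratio of core to accessory subunits was -1.07, -1.22, -0.81 and 0.74 (mean -0.59 ± 0.90, exact permutation p = 0.25, adjusted p = 0.333), with library 4 opposite to the other 3. Without the gene of each list that had the most tags, all 4 libraries lay below 0, from -2.63 to -0.23, with a mean of -1.16 and the smallest exact permutation p.

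The 5 genes with the most tags held 195 of the 513 (38.0%). Ndufa4, a small subunit first assigned to complex I and later found in complex IV, was the most abundant. It had 29, 13, 16 and 19 tags in libraries 1 to 4, or 0.181%, 0.197%, 0.269% and 0.312% of the library (0.240% ± 0.0614, n = 4). Its level varied by a coefficient of variation of 25.6%, and the Wilson intervals of all 4 libraries overlapped. Cox6a1, the ubiquitous isoform of a complex IV subunit that lies at the interface of the dimer, came next. It had 41, 3, 1 and 6 tags, so that 80.4% of its tags lay in library 1, which held 282 of the 513 tags of the set, at 0.256% (Wilson interval, 0.189 to 0.347) beside 0.0984% (0.0451 to 0.214) in library 4, and these intervals overlapped. The interval of library 1 lay above those of library 2 (0.0154 to 0.133) and library 3 (0.00297 to 0.0952). The mean of Cox6a1, 0.104% ± 0.107, fell to 0.0535% without library 1.

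Other complex IV subunits had fewer tags. Cox5b, a zinc-binding subunit on the matrix side, had 11, 8, 0 and 2 tags. Cox4i1, the ubiquitous isoform of the largest nuclear-encoded subunit, had 6, 9, 1 and 0 tags. Cox7c had 9, 5, 0 and 0. No difference between libraries is read from counts this low. Without library 2 the mean share of Cox5b fell from 0.0556% to 0.0338%, that of Cox4i1 from 0.0476% to 0.0181% and that of Cox7c from 0.0330% to 0.0187%. Cox6c had 17 tags in library 1 and 0, 1 and 0 in the others, and library 1 thus held 94.4% of its tags, with a mean share of 0.0307% that was 0.00561% without it. Cox5a had 5, 1, 0 and 1 tags, Cox7a2 had 5, 2, 0 and 2, and Cox6b1 had 1, 0, 0 and 2. All of these are listed as single sites except Cox7a2, for which 1 of the 2 tags in library 4 lay at a second site past the end of the gene.

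**Figure D2:**
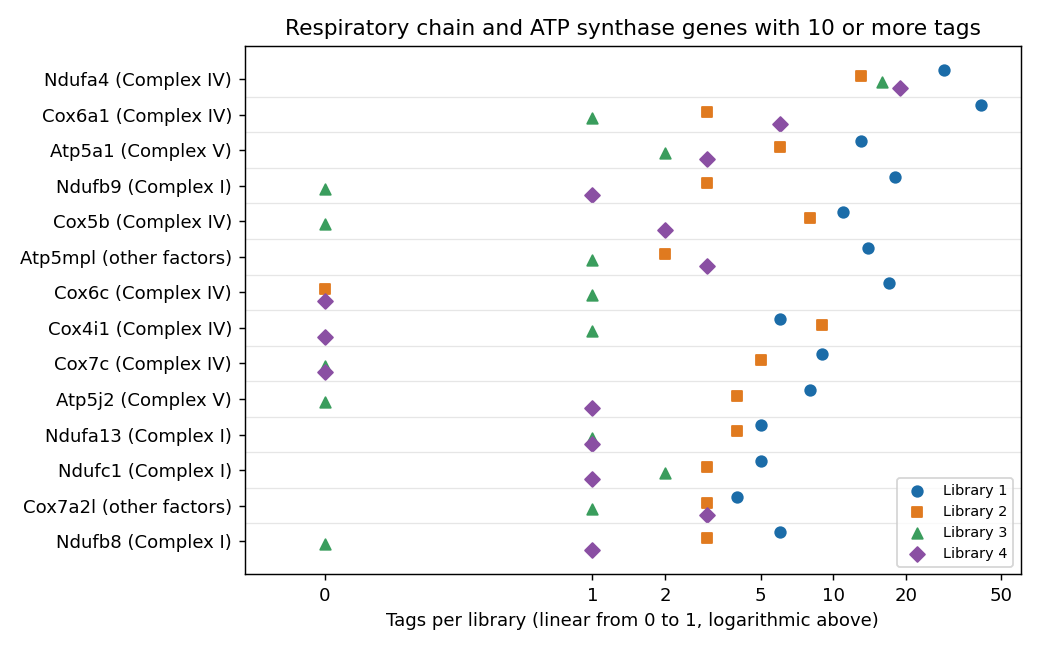
Tags in each of the 4 libraries (horizontal axis, linear from 0 to 1 and logarithmic above) for the 14 genes with 10 or more tags, ordered by total, with the complex in brackets. Ndufa4 had between 13 and 29 tags in every library, while Cox6a1 and Cox6c had 41 and 17 tags in library 1 and few elsewhere.

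In complex I, Ndufb9, an accessory subunit of the membrane arm, had the most tags with 18, 3, 0 and 1, and its mean share of 0.0435% was 0.0206% without library 1. The complex I genes with tags in every library were 4 other accessory subunits. Ndufc1 had 5, 3, 2 and 1 tags, Ndufa13 (also known as GRIM-19) had 5, 4, 1 and 1, Ndufa6 had 2, 2, 2 and 3, and Ndufa5 had 5, 1, 1 and 1. Ndufb8, a membrane arm subunit often used as a marker of assembled complex I, had 6, 3, 0 and 1. Ndufa1 had 6, 2, 1 and 0 tags at a site whose surrounding 31 bases have 12 further exact copies in the genome, so that its tags may come from another place. Core subunits were sparse, and Ndufv1, which binds NADH and the flavin, had 1, 3, 0 and 1 tags.

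Complexes II and III had few tags, most of them in library 1 for complex III. Sdha, the flavoprotein of succinate dehydrogenase, had 1 tag in library 1. The membrane anchors Sdhc and Sdhd had 3 tags in library 4 and 1 tag each in libraries 1 and 3, respectively, and Sdhb had no site. In complex III, Uqcrb had 6, 0, 1 and 1 tags and Uqcrq had 6, 0, 1 and 0. These small subunits were its genes with the most tags, mainly through library 1, and had none in library 2. The catalytic subunits Cyc1 (cytochrome c1) and Uqcrfs1 (the Rieske iron-sulfur protein) had 2 tags each, in library 1 for Cyc1 and in libraries 1 and 3 for Uqcrfs1. No comparison between libraries is possible for genes at this depth.

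In ATP synthase, Atp5a1, the α subunit of the catalytic head, had the most tags. It was found in all 4 libraries with 13, 6, 2 and 3 tags, or 0.0637% ± 0.0268 (SD, n = 4). Among the other head and stalk subunits, Atp5d (δ) had 1, 1, 3 and 1 tags and was likewise present in every library, while Atp5c1 (γ) had 2, 2, 1 and 0. In the membrane sector and peripheral stalk, Atp5j2 had 8, 4, 0 and 1 tags and Atp5k had 5, 1, 0 and 0. Atp5pb, which the annotation used here names Atp5f1, had 4, 2, 0 and 0, and Atp5g3, the single c-ring paralog with a site under its own name, had 2, 0, 2 and 0. Atp5mpl, a small proteolipid bound to ATP synthase that was counted apart because the subunit list did not hold it, had 14, 2, 1 and 3 tags. Counting it in complex V turned the sign of the mean log2 ratio of complex V to complex I, to 0.27 (exact permutation p = 0.375). Cox7a2l, which joins complexes III and IV into supercomplexes, had 4, 3, 1 and 3 tags. The 5 assembly factors Ndufaf2, Ndufaf3, Ndufaf6, Ndufaf7 and Ndufaf8 had 1 or 2 tags each.

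The sites shared a feature that the naming rule did not use, namely a short distance from the stop codon to the listed position. Of the 76 sites, 69 (90.8%) lay in a 3′UTR, beside 76.5% of all sites, and 7 (9.21%) lay between genes, beside 15.3%. None lay in a coding exon or an intron. For the 68 sites in the 3′UTR of their own gene, the median distance from the stop codon was 107.5 spliced bases (interquartile range, 62.75 to 153.5), beside 957 bases over all 6537 such sites. Under 200 bases were 56 of the 68 (82.4%), beside 12.7% of all sites. The difference held in each library, with medians of 107, 102, 113 and 108 bases beside 1000.5, 861, 1018 and 1068.5 over all sites. These are properties of the annotated genes together with the sites used, given as a description. For the 41 sites within 100 bases of the annotated gene end, the listed position lay a median of 25 bases upstream of that end. Over all such sites the median was 24 bases upstream. At these sites the distances therefore stop short of the annotated end of the mRNA. Sites under 200 bases in genes outside the set took 11.5%, 13.4%, 12.4% and 9.27% of the 3′UTR tags of libraries 1 to 4.

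The distance was also short in complexes I, III, IV and V. The median was 64 bases in complex I, 113.5 in complex V, 115 in complex IV and 153 in complex III. In complex II it was 621 bases over 3 sites (261 to 722). No difference between complexes was tested. Among genes with 10 or more tags, the sites of Ndufa13 and Cox5b lay closest to the stop codon, at 24 bases each. The 3′UTR site of Cox7a2l, at 657 bases, was the farthest. The site of Ndufaf6 lay inside the stop codon itself and had 1 tag.

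**Figure D3:**
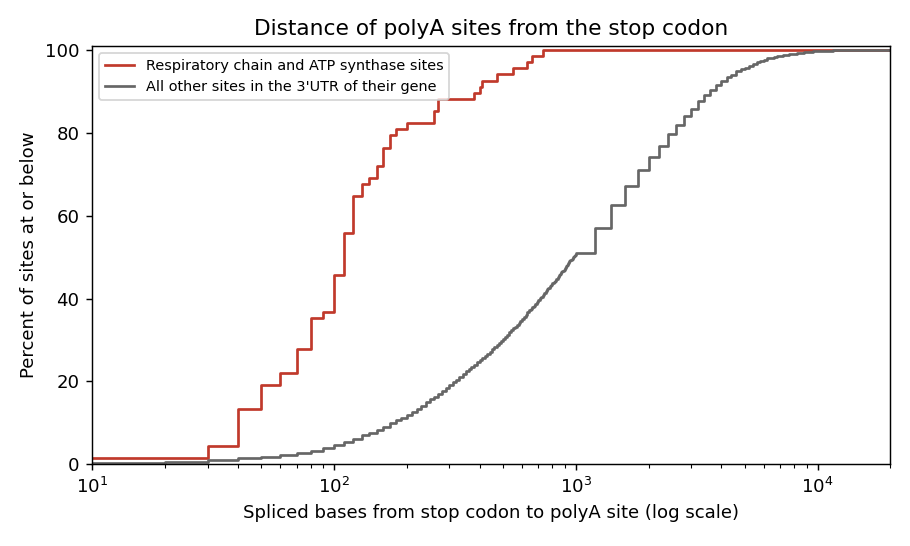
Cumulative percentage of sites (vertical axis) by the spliced distance from the stop codon in bases (logarithmic horizontal axis), for the 68 sites of the respiratory chain and ATP synthase in red and all other 3′UTR sites in grey. The median was 107.5 bases for the former, and 82.4% lay under 200 bases.

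A hexamer was found beside most of the sites. AATAAA or ATTAAA was searched on the strand of the gene within 50 bases to either side of the listed position, and 67 of 76 sites (88.2%, Wilson interval 79.0 to 93.6) held one, beside 78.1% of all sites. AATAAA was present at 53 and ATTAAA alone at 14, and neither was in the window at 9. At each site the nearest AATAAA was taken, or the nearest ATTAAA where no AATAAA was in the window. This hexamer began a median of 2 bases upstream of the listed position, written as -2 (interquartile range, -6 to 3). Of the 67, 62 began between 15 bases upstream and 10 downstream. The median over all sites was likewise -2, so that the offset is a feature of the table. When the search was restricted to the 50 bases upstream the share dropped to 26.3% here and 27.7% for all sites. Of the 48 sites with tags in more than 1 library 46 had a hexamer (95.8%, beside 84.3% of all such sites). Within 100 bases of the annotated gene end lay 41 of the 76 sites (53.9%, beside 42.1%). A further exact copy of the 31 bases around the site existed for 11 sites (14.5%, beside 9.92%), and 8 of these had only 1 further copy.

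**Figure D4:**
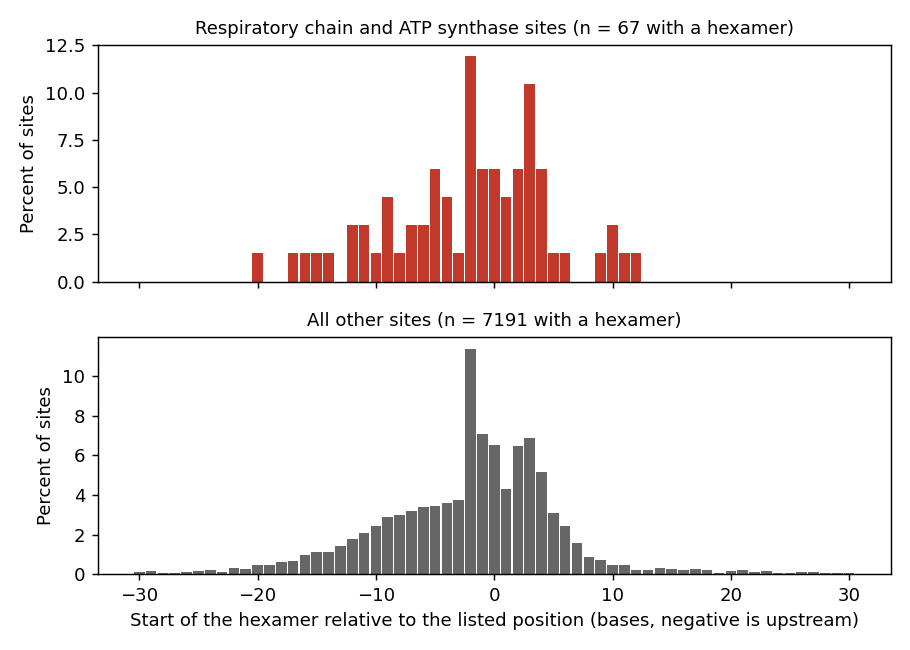
Start of the hexamer relative to the listed position in bases (horizontal axis, negative upstream), as a percentage of the sites with a hexamer. The nearest AATAAA was taken, or the nearest ATTAAA where there was no AATAAA. The upper panel shows the respiratory chain and ATP synthase (67 sites) and the lower panel all other sites. Both distributions centred near -2, and 62 of the 67 sites lay between -15 and 10.

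More than 1 polyA site was listed under the name of 11 of 63 genes (17.5%), beside 21.7% of all genes, with 3 sites in Ndufa4 and Ndufa12 and 2 in the other 9. In 5 of the 11 more than 1 of these sites lay in the gene's own 3′UTR. The question of whether distal or proximal sites prevailed was put to these 11 genes. The most proximal sites together had 43, 21, 17 and 26 tags and the most distal 37, 10, 6 and 3. The log2 ratio of distal to proximal tags was -0.22, -1.07, -1.50 and -3.12 in libraries 1 to 4, a mean of -1.48 ± 1.22 (exact permutation test, p of 1 in 8, the smallest possible). The main Ndufa4 site gave 27, 13, 14 and 18 of the proximal tags, set against a far site 562 kb away. The main Ndufb9 site gave 17, 3, 0 and 1 of the distal tags, set against a site in another gene, Rnf139. The ratio therefore does not measure the choice between sites of the same mRNA, and its direction depended on the sites counted. With only those inside the 3′UTR of their own gene, which left 5 genes, proximal sites had 3, 3, 2 and 4 tags and distal sites 16, 6, 2 and 0, and the mean log2 ratio was 0.10 (exact permutation p = 1).

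Several of the second sites lay outside the gene whose name they carry. The Ndufa4 site that lies 562 kb past the end of the gene is an example, with 1, 0, 2 and 1 tags in libraries 1 to 4, and another site with 1 tag lay 710 bases past the end. The far sites of Cox7a2l (289 kb past the end, 1 tag), Atp5k (67.7 kb, tags 2, 1, 0 and 0), Ndufaf3 (50.1 kb, 1 tag), Ndufa12 (16.4 kb, 2 tags in library 3) and Cox7a2 (4.34 kb, 1 tag) also lay between annotated genes. The 7 sites between genes together held 13 tags. The second site of Ndufb9, with 1 tag, lay 39.1 kb upstream of the main site and in the 3′UTR of Rnf139, a neighbouring gene on the same strand. A hexamer lay within 50 bases of 4 of the 7 sites between genes and of the Ndufb9 site in Rnf139. The sequences of 4 far sites, of which 3 are those without a hexamer, are given beside sites in the 3′UTR, with capitals for 1 hexamer where there is one (the far site of Ndufa4 also holds an ATTAAA, left in lower case).
Ndufa4 far site, chr6:11338032-11338061, minus strand: catttggaaaAATAAAactttattaaatca
Atp5k far site, chr5:108365566-108365595, minus strand: gtgtaaccatttacacacaatatgaaatga
Atp5k site in the 3′UTR, chr5:108433256-108433285, minus strand: gtcgttgagaacgAATAAAgcttcattgtg
Cox7a2l far site, chr17:83213127-83213156, minus strand: atgttctgaaattagataattattcctgtg
Cox7a2l site in the 3′UTR, chr17:83501932-83501961, minus strand: attgaccggactgcggAATAAAcactggaa
Ndufa12 far site, chr10:94237836-94237865, plus strand: ttttttttttttttttttttttttttaaaa
The far sites of Atp5k, Cox7a2l and Ndufa12 had no hexamer within 50 bases, and the 31 bases at the Ndufa12 site, which are mostly a run of T, have 4291 further exact copies in the genome. The far site of Ndufa4 had an AATAAA, and so had both sites in the 3′UTR shown beside the far sites. Tags at the far sites are counted under the gene name in the table, and no evidence here joins them to the mRNA of that gene.

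Of the genes with more than 1 site in their own 3′UTR, Atp5a1 had the most tags, and both of its sites are on chromosome 18 (GRCm38, plus strand) in its 3′UTR. The proximal site, at position 77782490 and 108 bases from the stop codon, had 2, 0, 1 and 3 tags. The distal site, at position 77782845 and 355 bases farther, had 11, 6, 1 and 0. The distal share was 84.6% in library 1 (Wilson interval, 57.8 to 95.7), 100% in library 2 (61.0 to 100), 50% in library 3 (9.45 to 90.5) and 0% in library 4 (0 to 56.1). Libraries 1 and 2 thus used mainly the distal site, and the interval of library 4 lay below that of libraries 1 and 2. With 2 and 3 tags in libraries 3 and 4 the shares there have little precision. Atp5pb had a comparable pair 164 bases apart, with 1, 2, 0 and 0 tags at the proximal and 3, 0, 0 and 0 at the distal site. The paired sites of Uqcrfs1 (151 bases apart) and Ndufaf7 (339 bases apart) had 1 tag each.

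Other genes of mitochondrial energy metabolism were also recovered. Of 22 assembly factors outside the naming rule 11 had tags, 44 in all (12, 6, 13 and 13), and Cox14, needed for the first steps of complex IV assembly, held 21 of them with 1, 0, 9 and 11. Of 9 genes for carriers and partners of ATP synthase 7 had tags, 38 in all (14, 14, 5 and 5), among them the ADP/ATP carrier Slc25a5 with 3, 4, 1 and 2. Of 16 genes of the citric acid cycle and pyruvate dehydrogenase 14 had tags, 61 in all (32, 3, 12 and 14). Among them Pdha1, a subunit of pyruvate dehydrogenase, had 8, 0, 6 and 2. Genes of mitochondrial transport held more tags, 362 in all (182, 152, 14 and 14 in 8 of 9 genes), of which 325 belonged to Kif5a, a kinesin heavy chain of neurons, with 162, 139, 12 and 12. These lists overlap with no gene of the respiratory chain set, and no difference between them was tested.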

How the data were processed

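The authors deposited tag counts, whole numbers that were not normalized, for each polyA site and library. Per the submitters' processing notes, reads were trimmed with cutadapt and aligned to mm10 with Novoalign, and polyA sites were clustered with CTK according to the study's methods. Whether duplicates were collapsed and how reads matching several places were treated is not given in the sources used here. The table lists sites with as little as 1 tag in 1 library.

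Sites were annotated with GENCODE vM21 and GRCm38. The 3 sites on unplaced scaffolds were not annotated. Shares are percentages of a library's tags. Ratios used tags per listed gene with a count of 0 set to 0.5 and were tested by an exact two-sided sign-flip permutation test over libraries, which was checked on simulated data. Members, lists and tests were chosen with earlier results of these data known. Named genes were Atp5a1, those with tags in all 4 libraries, the 15 with the most tags (ties kept), those with more than 1 site or a site outside the gene, and catalytic or carrier subunits. Alternatives left out each library, sites resembling Bc1 or sites in 1 library, or used vM21 names. Python 3.11.15, numpy 2.4.6, pandas 2.3.3 and scipy 1.17.1 were used.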

Additional observations from a re-analysis of the deposited data

Results flagged for a closer look

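Cox6c, a small subunit of complex IV, had 17 of its 18 tags in library 1. Its share there was 0.106% of tags, the next highest library was at 0.0168%, and the gap to it was 0.842 of the whole range over the 4 libraries, above Dixon's 95% critical value for 4 values. Among 26 values tested this was the 1 beyond the limit, where chance gives about 1.3.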

How the results depend on the processing

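No paired analysis was possible because the 4 libraries form 1 group. Of 113 alternative values for the comparisons, 98 kept their direction and, where no test was made, moved by less than the spread between libraries or, for counts of genes, by less than 1.5 times. Some of these moved in size, since the log2 ratio of complex IV to complex I was 0.39, that of complex V to complex I -0.54 and that of core to accessory subunits -1.16 without the gene of each with the most tags, and the share of complex II, 0.0196%, was 0.00977% without library 4 and 0.00797% with sites in more than 1 library. Depth is a limit, since 27 genes had 3 tags or fewer. The cause of the changes was not tested except where fewer libraries or sites, or another grouping, produce them. The 49 genes with tags in more than 1 library became 32 without library 1 (range 32 to 45 over the libraries left out), and 25 when at least 2 tags in a library were required. The log2 ratio of complex V to complex I, -0.01, was 0.33 without library 4 (range -0.19 to 0.33), 0.11 with sites in more than 1 library, 0.047 with vM21 names and 0.45 over genes with a site. The log2 ratio of distal to proximal tags, -1.48, was 0.24 with vM21 names, 0.10 with sites in the 3′UTR of their gene, and -2.09 to -0.83 leaving out 1 library. The share of sites with a hexamer was 26.3% upstream only and 95.8% for sites in more than 1 library. In groupings chosen after seeing the data, counting Atp5mpl in complex V gave a complex V to I ratio of 0.27 and left 0.0546% for the other factors, and counting Ndufa4 in complex I gave shares of 0.663% for complex I and 0.329% for complex IV and a log2 ratio of -0.34. Leaving out 1 library, the ratios to complex I ran from 1.34 to 1.5 for complex IV and -1.02 to -0.50 for complex III, core to accessory subunits from -1.03 to -0.38, and the share of all tags from 1.23% to 1.51%. All 70 alternative values for single genes moved by less than the SD over the 4 libraries, which is wide, and the means of Cox6a1, Cox6c and Ndufb9 without library 1 and of Cox4i1, Cox5b and Cox7c without library 2 fell by over 1.5 times.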
